A study of Mus musculus with 4 samples.

Results

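Genes of the extracellular matrix, of cell junctions and of the metalloproteases that cut matrix and cell surface proteins were examined in mouse embryonic stem (ES) cells treated with inhibitors of 3 signalling enzymes. The members are named genes whose symbol begins with Adam, Itga, Itgb, Pcdh, Lama, Lamb or Lamc, or with Col, Cdh, Mmp, Timp, Cldn or Krt followed by a digit. Symbols were available for 5619 of the 25030 genes in the deposited table, and 41 genes chosen in this way are described. They comprise 10 ADAM genes, 13 ADAMTS genes, 4 ADAMTS-like genes, 7 collagen chains, 1 laminin chain, 3 cadherins, 1 claudin, 1 keratin and the integrin-binding protein gene Itgb1bp1. The rule also covers integrin subunits, protocadherins, MMPs and TIMPs, but 0 of the named genes belonged to these families, so the description is mainly one of ADAM and ADAMTS genes and matrix chains.

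The cells were the male line B6R(5) of strain C57BL/6, a single line grown without feeders on gelatin. At 24 hr after plating, they received DMSO alone (control), FGFR inhibitor PD173074, MEK inhibitor PD98059, or GSK inhibitor BIO, and were harvested after 48 hr. The final DMSO content was 0.2% in all 4 cultures. RNA of 1 culture per condition was labelled with Cy3 and hybridized on 1 array of a single slide, together with a Cy5-labelled common reference. By the labels, the reference was a pool of RNA from mouse cell lines of many tissues, including embryo fibroblasts, muscle myoblasts and skin. The study's methods give a mixture with RNA of MC1 cells as the reference of its organ arrays and, for RNA of the inhibitor cultures, refer back to an earlier description without naming it. The labels of the present samples do not name MC1 cells, so ratios to the reference rest on a pool whose make-up is not fully settled. Each condition therefore had 1 array, no spread between cultures could be measured and no test was possible. A lower signal from fewer cells of one kind cannot be told apart from less RNA per cell. The ES cell identity could not be checked, because 0 of 10 ES cell markers had a named probe. The only endoderm marker of 7 with a probe was Sox17, with log2 fold changes of -0.17, 0.11 and -0.37 with the FGFR, MEK and GSK inhibitors.

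As background, ADAM proteins are membrane-bound metalloproteases, several of which release growth factors, receptors and adhesion proteins from the cell surface. Other ADAM proteins lack a functional protease site and act in adhesion. ADAMTS proteins are secreted metalloproteases that process procollagens and cleave proteoglycans, whereas ADAMTS-like proteins share their accessory domains without the protease domain. Laminins are trimers of an alpha, a beta and a gamma chain and form the basement membrane together with type IV collagen. Embryonic cells assemble basement membrane early, and fibrillar collagens are typical of mesenchymal cells. FGF signalling through FGFR, MEK and ERK drives ES cells towards differentiation, and inhibition of GSK-3 stabilizes beta-catenin.

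Every member was measured by 1 probe of 60 bases. No member probe shared a stretch of 20 bases with another probe of the array on either strand (0 of 41). The first 30 bases of the probes behind the main results are given 5′ to 3′, in the order of their families, because each value below rests on hybridization to that one sequence. Shown are members with the largest differences from control and the collagen that was farthest below the reference.
Adam15: agcaatacctggggacgcactaaaatagct
Adam23: ggctgcctgtgaacggagattctgtcatcc
Adam32: ctcactgagaaatgaagagtccacgttctt
Adamts8: taaaaggtagaagtgcacttattgatccaa
Col3a1: ataagccaaactctctgaaaccccagcaaa
Lamc1: aactgcgctggagattgaagaacttaaccg

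The first question was which members gave a signal in ES cells. For 28 of 41 members (68.3%), Cy3 was well above background on every array, against 64.8% of all genes. These were 9 of 10 ADAM genes, 7 of 13 ADAMTS genes, all 4 ADAMTS-like genes, 4 of 7 collagens, Lamc1, Cldn12, Krt10 and Itgb1bp1. The cadherins were the family with no member above background on all 4 arrays (0 of 3). Cdh7 and Cdh19 were not well above background on any array in either channel, so their probes say nothing of the transcripts. Cdh20 passed in Cy3 on 1 array. As background, these cadherins are known mainly from the nervous system and neural crest.

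A further 8 members were not well above background in Cy3 on any array, namely Cdh7, Cdh19, Adam12, Adamts1, Adamts3, Col4a3, Col5a2 and Col19a1. Adam12, Adamts1 and Col5a2 had signal from the reference on all 4 arrays, so their probes hybridized. The other members that passed on some arrays only were Adamts17 (3 of 4), Adamts19 (2 of 4), Adamts18 and Adamts20 (1 of 4 each). Adamts17 had Cy3 signals of 53.6 in control and 41.3, 44.5 and 24.7 with the FGFR, MEK and GSK inhibitors, and only the last was not well above background. The other genes of this kind had Cy3 signals of at most 33.1 on any array, and no fold change is given for them.

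The 2 type IV collagen chains that were held gave different outcomes. Col4a4 had a processed Cy3 signal of 2586 in control, 2933 with the FGFR inhibitor, 2880.0 with the MEK inhibitor and 2943 with the GSK inhibitor. Its neighbour in the genome, Col4a3, which shares a promoter region with it, gave 7.81, 4.38, 4.62 and 5.40 in the same order, not well above background on any array in either channel. A probe without signal in both channels says nothing of the transcript. The log2 fold changes of Col4a4 were 0.12, 0.07 and 0.03.

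Set against the reference pool, the laminin chain Lamc1 was higher in ES cells, and the collagens Col3a1, Col5a2 and Col6a3 were lower. Col4a4 lay near 0, as did the dim Col9a1 after normexp correction. Of 31 members with either channel well above background on every array, 10 were at least 2-fold lower in ES cells on all 4 arrays, against 17.4% of all genes, and 1 was at least 2-fold higher, against 13.5% of all genes. Adam12, Adamts1 and Col5a2 entered this count through Cy5 alone, and Adam22 and Adamts8 through Cy3 alone. The median of the 4-array means was -0.30 over the members and -0.07 over all genes (log2 ratio). With the scanner's processed signals the split was 6 higher and 11 lower, against 22.5% and 23.8% of all genes. With each array centred on its median it was 1 higher and 12 lower, against 7.90% and 24.3% of all genes, whose median ratio was then -0.28. Dyes were not swapped, so a dye bias of a probe remains in these ratios, although it cancels in the differences between arrays.

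**Figure D1:**
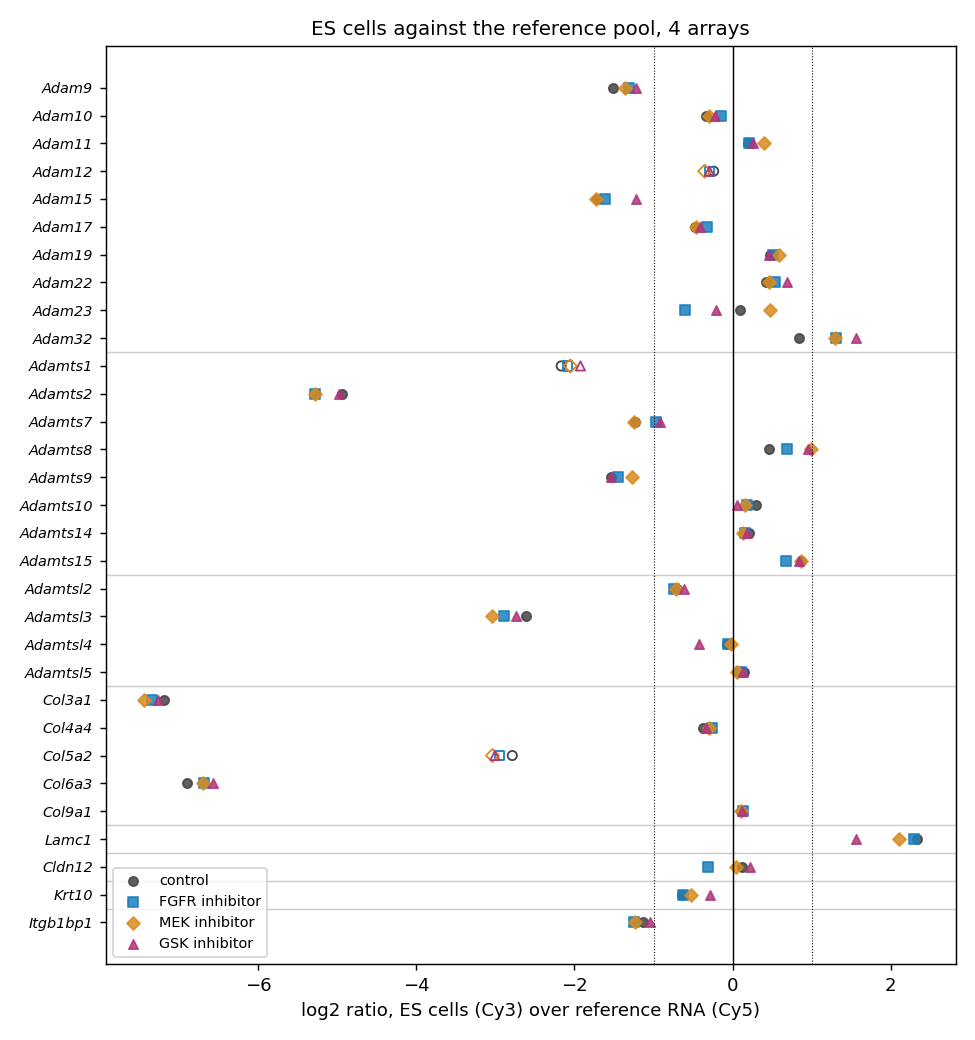
Log2 ratio of ES cell RNA (Cy3) to reference RNA (Cy5) for the 31 members with a channel well above background on every array, by family; each symbol is 1 array, and open symbols are genes with Cy3 well above background on no array. Dotted lines mark 2-fold. Col3a1, Col6a3 and Adamts2 lie far to the left on all 4 arrays, and Lamc1 is the only member to the right of the upper dotted line on all of them.

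Lamc1 encodes the gamma 1 chain found in most laminins. Its log2 ratio to the reference was 2.33 in control, 2.30 with the FGFR inhibitor, 2.10 with the MEK inhibitor and 1.56 with the GSK inhibitor. It was thus above the reference in every condition and closest to it with the GSK inhibitor.

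Col3a1, the fibrillar type III collagen of mesenchymal cells, had log2 ratios of -7.19, -7.34, -7.44 and -7.26 in control and with the FGFR, MEK and GSK inhibitors. Col6a3, a chain of the microfibrillar type VI collagen, had ratios of -6.90, -6.69, -6.70 and -6.58. Adamts2, the protease that removes the amino-terminal propeptide of fibrillar procollagens, had ratios of -4.94, -5.29, -5.29 and -4.97. The 4 arrays of these genes spread by 0.25, 0.33 and 0.34, far less than their distance from the reference.

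The ES cell signals of these genes are less certain than the ratios alone show. The processed Cy3 signal of Col3a1 was 690.2, 714, 686 and 744 in control and with the FGFR, MEK and GSK inhibitors, while Cy5 was 119835, 132973, 139290.0 and 132088. Cy3 thus stood at 0.493% to 0.576% of Cy5. On the control array, 462 other probes were at least as bright in Cy5, and the lowest Cy3 signal among them was 673. On the other arrays the lowest Cy3 among such probes was 753, 671 and 675. Col3a1 was therefore at or near the lowest Cy3 that any probe of that Cy5 brightness showed. Whether light or dye from the red channel adds to these Cy3 signals was not tested. Col6a3 was placed in a similar way, since between 3 of 1158 and 5 of 1277 probes at least as bright in Cy5 had a lower Cy3 on an array (0.259% to 0.392%). For Adamts2 the share was 0.393% to 0.659%, and for Col3a1 it was at most 0.477%.

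Col5a2, a fibrillar chain that co-assembles with type I collagen, was at least 6.90-fold lower in ES cells than in the reference on every array, and Adamts1, which cleaves proteoglycans, at least 3.80-fold lower. Both are bounds, since their Cy3 was not well above background, and a dye bias of these probes was not tested. For Adam12 the bound was only 1.18-fold. Adamtsl3 had log2 ratios between -3.05 and -2.61, Adamts9 between -1.54 and -1.28, Adam15 between -1.73 and -1.22, and Adam9 between -1.51 and -1.23. Itgb1bp1, which binds the beta 1 integrin tail, lay between -1.25 and -1.05.

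The remaining 20 of the 31 members were not 2-fold apart from the reference on all 4 arrays. The collagens Col4a4 (-0.38 to -0.26) and Col9a1 (0.11 to 0.13) lay near 0. So did Adam10 (-0.34 to -0.15) and Adam17 (-0.48 to -0.32), the main sheddases of the ADAM family. The value of Adam10 depended on the processing, since the dim probe's ratios in the processed signals were -1.03, -0.67, -0.81 and -0.66 in control and with the FGFR, MEK and GSK inhibitors. Those of Col9a1, also dim, were 0.32, 0.30, 0.50 and 0.63 in the processed signals. Over the 4 arrays Adam10, the widest of these 4 genes, spanned 0.19 on the log2 scale after normexp correction.

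The second question was whether any member changed with an inhibitor. Across the 28 members measured on all 4 arrays, the lowest and the highest array were 0.26 apart in the median (log2), against 0.28 over all genes. Adam23 was the 1 member whose lowest and highest arrays were at least 2-fold apart, against 3.19% of all genes. After normexp correction with an offset of 50, no member was changed at least 2-fold against control with any inhibitor (0 of 29 with the FGFR inhibitor, 0 of 29 with the MEK inhibitor and 0 of 28 with the GSK inhibitor), where 1.39%, 0.0832% and 1.43% of all genes were. At shares of that size a count of 0 among 28 or 29 genes is near the background. In the processed signals, and equally among deposited log ratios, Adamts7 passed 2-fold with the FGFR inhibitor (1.09) and Adamts8 with the MEK inhibitor (1.04).

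At 1.5-fold, 1 member was lower and 0 were higher with the FGFR inhibitor, against 2.92% and 2.77% of all genes. With the MEK inhibitor 0 members were lower or higher, against 0.469% and 0.582% of all genes. With the GSK inhibitor 1 member was lower and 1 was higher, against 3.52% and 3.02% of all genes. These shares do not stand apart from the background. The processed signals, which do not shrink the ratios of dim spots, gave 2 higher and 2 lower, 3 higher and 1 lower, and 4 higher and 3 lower members for the FGFR, MEK and GSK inhibitors. In that setting 5.89% of all genes were higher and 6.90% lower with the FGFR inhibitor, 3.46% and 3.28% with the MEK inhibitor, and 7.62% and 7.53% with the GSK inhibitor. The median log2 fold change of the members was 0.01, 0.01 and 0.05 with the 3 inhibitors, and that of all genes -0.02, -0.01 and -0.003. All 3 comparisons use the same control array, so an error of that array enters each of them.

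**Figure D2:**
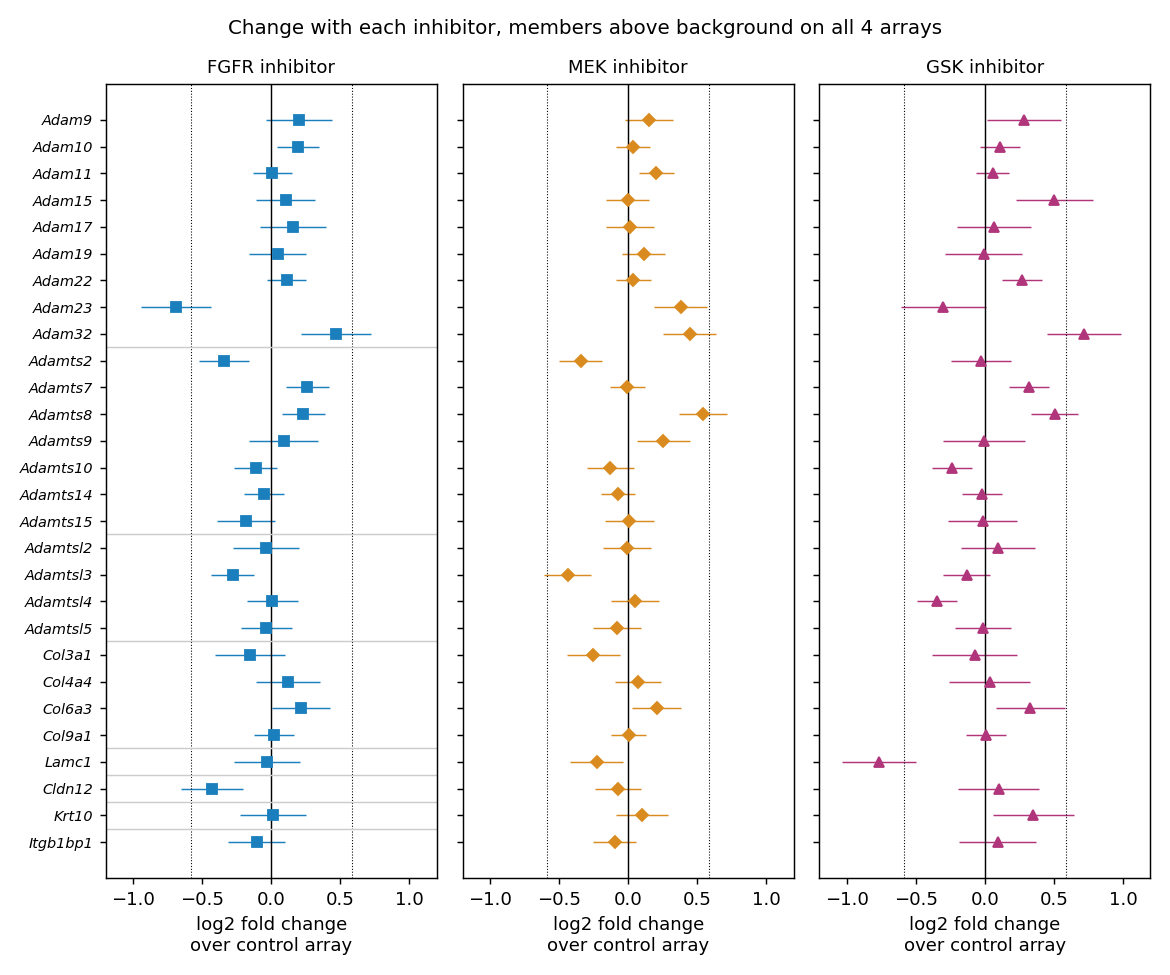
Log2 fold change over the control array for the 28 members whose Cy3 passed the background criterion on every array, in a panel for each inhibitor. Bars are the robust SD of the fold change over genes of similar signal and not an error between cultures; dotted lines mark 1.5-fold. Adam23 with the FGFR inhibitor and Lamc1 and Adam32 with the GSK inhibitor lie beyond the dotted lines.

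2 measures of spread are given beside the changes, and neither comes from replicate cultures of one condition. The first is a robust SD of log2 fold changes, based on median absolute deviations and taken over genes of similar Cy3 signal. It was 0.20, 0.16 and 0.24 over all genes with the FGFR, MEK and GSK inhibitors, and it contains true changes and differences between the cultures compared as well as error. The second uses the reference RNA, which was the same on every array. For the 29 members with Cy5 well above background on all arrays, the Cy5 signal of an inhibitor array differed from that of the control array by between -0.29 and 0.24 (log2), with a root mean square of 0.10. Over the 17834 genes of that kind the root mean square was 0.11 and the range -1.82 to 2.41, so single spots varied far more.

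Among the ADAM genes, Adam23 and Adam32 differed most between conditions. Adam23 lacks an active protease site and is a neuronal adhesion protein and receptor of the Lgi family. Its processed Cy3 signal was 989 in control, 512 with the FGFR inhibitor, 1399 with the MEK inhibitor and 632 with the GSK inhibitor. The FGFR inhibitor array was thus the lowest and the MEK inhibitor array the highest, on opposite sides of control. The Cy5 signals of the same spots were 817, 774, 839.7 and 686.

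The log2 fold change of Adam23 was -0.69 with the FGFR inhibitor (1.61-fold lower), larger than the robust SD of 0.25 for genes of its signal. It was 0.38 with the MEK inhibitor (robust SD 0.19) and -0.30 with the GSK inhibitor (robust SD 0.31). The last was -0.57 with Cy3 alone, and the Cy5 signal of the gene differed by -0.25 between these arrays. In the processed signals the change with the FGFR inhibitor was -0.87 with a software error of 0.30. Its 4 arrays spanned 1.07 on the log2 scale. FGFR and MEK lie in one pathway, and the 2 inhibitors gave values of opposite sign for this gene. Whether the 2 conditions differ cannot be tested with 1 array each.

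Adam32 is expressed mainly in testis and is not known as an active protease. Its processed Cy3 signal was 631 in control and 955, 964 and 1186 with the FGFR, MEK and GSK inhibitors. Control was the lowest of the 4 arrays. The log2 fold changes were 0.47, 0.45 and 0.72, with robust SDs of 0.25, 0.19 and 0.27, and the last was the only one past 1.5-fold (1.65-fold higher). Its Cy5 signal was 256 in control and 265, 280.4 and 264 on the other arrays. Since control alone was low, the 3 differences rest on the same control spot.

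Adam15, a membrane metalloprotease with an integrin-binding site, had a processed Cy3 signal of 3792 in control, 4484 with the FGFR inhibitor, 4300.1 with the MEK inhibitor and 5357 with the GSK inhibitor. The highest value was with the GSK inhibitor, where the log2 fold change was 0.50 (robust SD 0.28) and so under 1.5-fold. It reached 0.61 when arrays were centred on their medians.

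The sheddases Adam10 and Adam17 stayed under 1.5-fold. Adam10, which cleaves Notch and cadherins, gave Cy3 signals of 54.7, 64.3, 58.3 and 53.1 in control and with the FGFR, MEK and GSK inhibitors, with log2 fold changes of 0.19, 0.04 and 0.11. In the processed signals, which do not shrink dim spots, these were 0.36, 0.22 and 0.37, with software errors of 0.35, 0.36 and 0.37. The Cy5 signals of Adam10 were 112 in control and 102, 102 and 83.9 on the inhibitor arrays. With Cy3 alone its changes were 0.09, 0.003 and -0.03. Adam17, which releases ligands of the EGF receptor, gave 1089, 1184, 1143 and 1091, with log2 fold changes of 0.16, 0.01 and 0.06. The other ADAM genes measured, Adam9, Adam11, Adam19 and Adam22, were between -0.01 and 0.29. Over the 9 measured ADAM genes, the median log2 fold change was 0.11 with each of the 3 inhibitors, and 8, 8 and 7 of the 9 were above 0, where 46.1%, 47.3% and 49.5% of all genes were. Under the alternatives the median ranged from 0.09 to 0.17 with the FGFR inhibitor, from 0.05 to 0.22 with the MEK inhibitor and from 0.03 to 0.38 with the GSK inhibitor. With Cy3 alone, 5 of the 9 were above 0 with the GSK inhibitor, and in the processed signals 6 of the 9 were above 0 with the FGFR inhibitor.

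**Figure D3:**
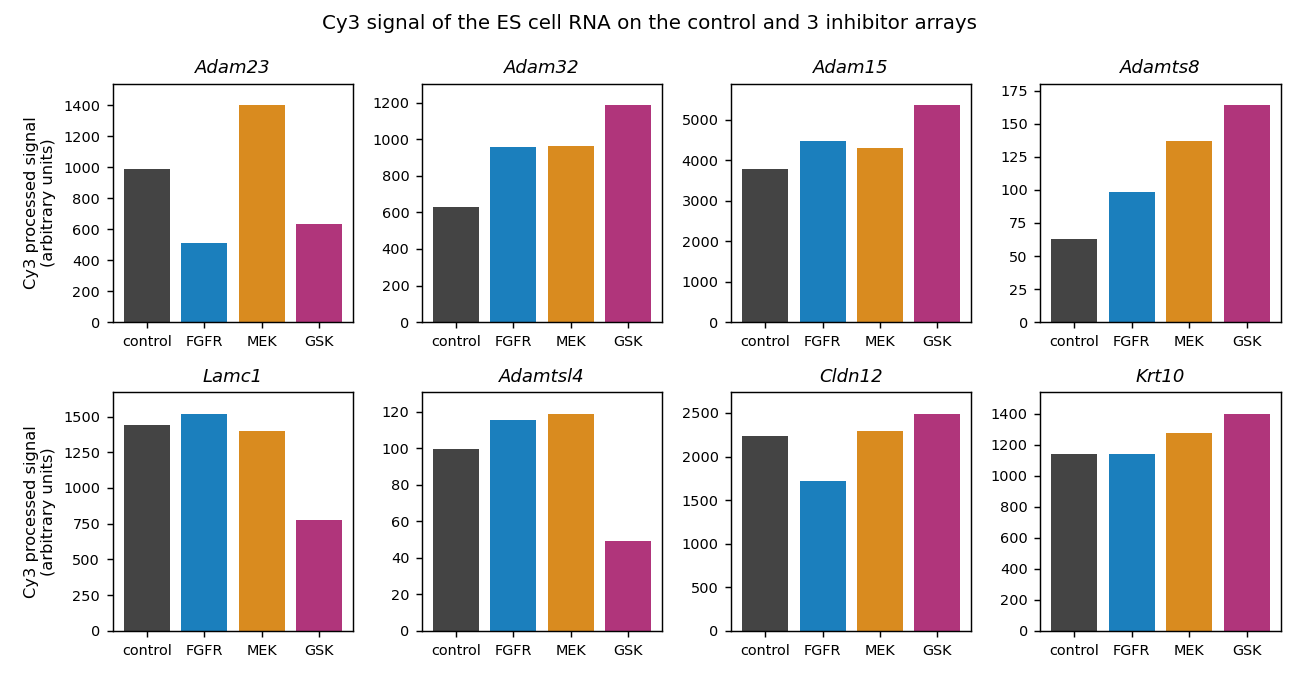
Processed Cy3 signal, in arbitrary units of the scanner, of 8 members on the control array and the arrays of the FGFR, MEK and GSK inhibitors; each bar is 1 array, so there is no error bar, and each panel has its own scale starting at 0. Adam23 is lowest with the FGFR inhibitor (512) and highest with the MEK inhibitor (1399), Adam32 is lowest in control (631), and Lamc1 is lowest with the GSK inhibitor (779).

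For the secreted ADAMTS proteases the signals were mostly dim. Adamts8, which cleaves aggrecan and inhibits blood vessel growth, had a processed Cy3 signal of 62.7 in control and 98.2, 137 and 164 with the FGFR, MEK and GSK inhibitors. Control was again the lowest array. The log2 fold changes were 0.23, 0.54 and 0.50, with robust SDs of 0.15, 0.17 and 0.17. The gene was not well above background in Cy5 on any array, so its ratios have a weak denominator, and the value with the MEK inhibitor ranged from 0.31 with Cy3 alone to 1.04 in the processed signals.

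Adamts7, which degrades cartilage oligomeric matrix protein, had Cy3 signals of 33.6 in control and 76.4, 46.2 and 58.6 with the FGFR, MEK and GSK inhibitors. The log2 fold changes were 0.26, -0.005 and 0.32, and the first was 1.09 in the processed signals with a software error of 0.47. Adamts2 gave 112, 95.7, 105 and 138, with log2 fold changes of -0.34, -0.34 and -0.03. Its Cy5 signal was 9093 and 9423 with the FGFR and MEK inhibitors, against 8439 in control, and with Cy3 alone the changes were -0.18 and -0.11.

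Adamts10, which is linked to fibrillin microfibrils, gave Cy3 signals of 83.1, 71.7, 76.3 and 59.0 and log2 fold changes of -0.11, -0.13 and -0.24. In the processed signals these were -0.64, -0.54 and -0.68 (software errors 0.40, 0.40 and 0.43), past 1.5-fold with the FGFR and GSK inhibitors. Adamts9 was 0.26 with the MEK inhibitor (robust SD 0.19) and 0.09 with the FGFR inhibitor, and its Cy3 signals were 389, 497, 637 and 450.0 in control and with the FGFR, MEK and GSK inhibitors. Adamts14 and Adamts15 were between -0.18 and 0.01 in all 3 comparisons. Over the 8, 8 and 7 ADAMTS genes measured, 3, 3 and 2 were above 0 with the FGFR, MEK and GSK inhibitors, against 46.1%, 47.3% and 49.5% of all genes. The balance depended on the processing, with 4 or 5 of 7 above 0 for the GSK inhibitor and 3 to 5 of 8 for the MEK inhibitor under other background corrections and normalizations, and 1 of 6 and 2 of 6 where Cy5 also had to be well above background, so no direction is given for the family. After normexp correction with an offset of 50, no ADAMTS gene was 1.5-fold apart from control (0 of 8, 0 of 8 and 0 of 7). In the processed signals Adamts7, Adamts8 and Adamts10 passed 1.5-fold with the FGFR and GSK inhibitors, and Adamts8 and Adamts17 with the MEK inhibitor. With an offset of 16 Adamts8 passed it with the MEK and GSK inhibitors. The Cy5 signal of Adamts17 was not well above background on any array, at 16.6 in control and 8.82 with the MEK inhibitor. With Cy3 alone its change with the MEK inhibitor was -0.08.

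The ADAMTS-like genes, whose products bind matrix microfibrils, were all measured. Adamtsl3 gave Cy3 signals of 49.8, 61.5, 38.5 and 36.3, and its log2 fold changes were -0.28, -0.44 and -0.13. With Cy3 alone, where the offset of 50 also shrinks dim signals, these were 0.05, -0.06 and -0.06. In the processed signals they were 0.02, -0.66 and -0.56. The reference signal of this gene was 1171 in control and 1430.1, 1435 and 1255 on the other arrays.

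Adamtsl4 gave Cy3 signals of 99.6, 116, 119 and 49.0, so that the GSK inhibitor array alone was low. Its log2 fold changes were 0.01, 0.05 and -0.35, the last -0.98 in the processed signals with a software error of 0.35. Adamtsl2 gave 910.0, 882, 948 and 1034, with log2 fold changes of -0.04, -0.01 and 0.09. Adamtsl5 was between -0.08 and -0.01. After normexp correction with an offset of 50, none of the 4 genes reached 1.5-fold in any comparison; in the processed signals Adamtsl3 did with the MEK inhibitor and Adamtsl4 with the GSK inhibitor.

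Among matrix chains, Lamc1 differed most with the GSK inhibitor. It had a processed Cy3 signal of 1444 in control, 1517 with the FGFR inhibitor, 1399 with the MEK inhibitor and 779 with the GSK inhibitor. The GSK inhibitor array was the lowest, and the other arrays lay close together. The log2 fold change was -0.77 with the GSK inhibitor (1.70-fold lower), larger than the robust SD of 0.27. It was -0.03 with the FGFR inhibitor (robust SD 0.24) and -0.23 with the MEK inhibitor (robust SD 0.19). The Cy5 signals were 154, 170.3, 189 and 153, so the reference was nearly equal in control and with the GSK inhibitor.

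Among the collagens the changes were small. The 4 measured genes Col3a1, Col4a4, Col6a3 and Col9a1 were between -0.25 and 0.33 in all comparisons. Col6a3 was the highest, at 0.21, 0.21 and 0.33, with Cy3 signals of 223 in control and 296, 299.8 and 271. In the processed signals the changes were 0.50, 0.48 and 0.53, each with a software error of 1.06. With the GSK inhibitor its Cy3 alone differed by 0.08, and its Cy5 signal was 39028 there against 46257 in control. Col3a1 was at -0.16, -0.25 and -0.07, and with Cy3 alone at -0.02, -0.11 and 0.06.

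Junction and cytoskeleton genes also stayed under 1.5-fold. Cldn12, a tight junction claudin, gave Cy3 signals of 2236 in control and 1723, 2295 and 2487 with the FGFR, MEK and GSK inhibitors. It was lowest with the FGFR inhibitor, at a log2 fold change of -0.43 (robust SD 0.22), and was -0.07 and 0.10 with the other inhibitors. Krt10, a keratin of differentiating epidermis, gave 1138, 1139, 1278 and 1399. Its log2 fold changes were 0.01, 0.10 and 0.35, the last near the robust SD of 0.29. Itgb1bp1 gave 5679.5, 5589, 5892 and 6339.6, with changes of -0.11, -0.10 and 0.09.

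Other matrix, receptor and junction genes were read in the same way. Of 20 such genes, 16, 16 and 14 had Cy3 well above background on both arrays for the FGFR, MEK and GSK inhibitors, and 0 were 1.5-fold higher or lower in any comparison. Over all genes 2.77%, 0.582% and 3.02% were 1.5-fold higher and 2.92%, 0.469% and 3.52% lower, so that a count of 0 among so few genes is near the background. Their median log2 fold changes were -0.02, 0.01 and 0.09. Fn1, which encodes fibronectin, gave Cy3 signals of 20759.9 in control and 30484, 30790.1 and 30449 with the inhibitors. Control was the lowest array, and the log2 fold changes were 0.40, 0.38 and 0.36, with robust SDs of 0.20, 0.15 and 0.25. Agrn, which encodes the basement membrane proteoglycan agrin, gave 8347, 11415, 12164 and 9255, with log2 fold changes of 0.32, 0.35 and 0.19. As for Adam32, the 3 differences of each gene share the control array.

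The 3 members past 1.5-fold stayed past it in all 7 ways of processing the signals. All 7 use the same spots and the same control array, so they say nothing of variation between cultures. Other members passed 1.5-fold in some of the 7 ways only, namely Adam11, Adam15, Adam22, Adamts7, Adamts8, Adamts10, Adamts17, Adamtsl3 and Adamtsl4. Adam23 with the FGFR inhibitor ranged from -0.87 to -0.66, Adam32 with the GSK inhibitor from 0.69 to 0.86, and Lamc1 with the GSK inhibitor from -0.88 to -0.71. The processed signals and the deposited table, which hold the same ratios, gave the largest sizes in each case.

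**Figure D4:**
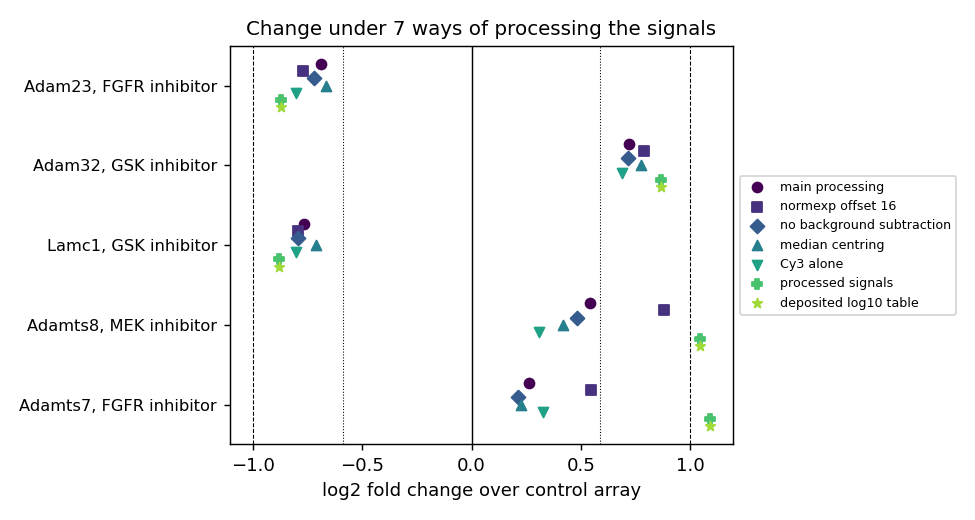
Log2 fold change over the control array of 5 members in the comparison named on the left, under 7 ways of processing the signals (symbols); dotted lines mark 1.5-fold and dashed lines 2-fold. Adam23, Adam32 and Lamc1 stay beyond 1.5-fold throughout, and Adamts8 and Adamts7 pass 2-fold only with processed signals or the deposited values.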

How the data were processed

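Total RNA of 4 ES cell cultures (Cy3) was hybridized with a common reference (Cy5) on 4 arrays of 1 slide, with no dye swap. The authors deposited scanner output of Agilent Feature Extraction 9.5.1.1, with mean spot intensity, local background and processed intensity in both channels, and a log10 table of 25030 probes, 1 per gene. From the values, the deposited log10 table is the processed log10 ratio plus the mean log10 Cy5 signal of the probe (25025 genes compared, all within 0.001). The authors' settings for that table are not given in the sources used here. Groups were taken from sample titles.

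Intensities were corrected by normexp (offset 50) and loess in limma 3.58.1 (R 4.3.3), and spots flagged as outliers (1 to 3 per array) were left out. The offset shrinks ratios of dim spots. Each log2 fold change subtracts the control array's log2 ratio of Cy3 to Cy5 from that of an inhibitor array. Counts used genes whose Cy3 was well above background on the pair of arrays compared, since below it a ratio has no measured numerator. The robust SD came from 20 groups of genes by signal. Python 3.11.15 was used for counts. Alternatives were offset 16, no background subtraction, processed signals, median centring, Cy3 alone, the deposited table, and no or a stricter background filter. Cy3 alone is Cy3 after normexp with the offset of 50 and quantile normalization over the arrays, so changes of dim spots are shrunk in it. Log2 differences of Cy5 between arrays and the bounds used single channels after normexp and loess, with distributions of mean intensity made equal between arrays. The steps were tested on simulated data. For 7 probes printed 5 times, the SD of the log2 ratio within an array was 0.03 to 0.15. The number of arrays limits the precision.

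Symbols came from 5 supplementary tables of the study through the probe name; other probes are unnamed here. A further gene that fits the rule is not reported here and is in no count of members. Members, families and lists were chosen with earlier results of these data known. Named genes are members past 1.5-fold, the extremes of each family, and Adam10, Adam17, Lamc1, Col4a3 and Col4a4, besides Fn1 and Agrn of the related genes. Protein sequences were not used here, so protein motifs and second probes of a gene were not analysed. Probes are marked unmapped in the scanner files, so no coordinates are given.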

Additional observations from a re-analysis of the deposited data

How the results depend on the processing

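No paired analysis was possible because there is a single array for every condition, so that no replicate could be left out either. The processed signals and the deposited log10 table each gave 1 member past 2-fold with the FGFR inhibitor (Adamts7) and 1 with the MEK inhibitor (Adamts8), and 4, 4 and 7 members past 1.5-fold with the FGFR, MEK and GSK inhibitors, against 1, 0 and 2. The added genes were Adamts7, Adamts8, Adamts10, Adamts17, Adamtsl3, Adamtsl4, Adam11 and Adam22, and the offset of 50, which shrinks dim ratios, is not applied in these settings. An offset of 16 gave 1 member past 1.5-fold with the MEK inhibitor (Adamts8). Members 2-fold above the reference numbered 6 in the processed signals, against 1, while the share of all genes went from 13.5% to 22.5%. Over all genes, the processed signals gave 724, 260 and 766 changed 2-fold and 2149, 1135 and 2493 changed 1.5-fold, against 233, 14 and 235 and 957, 177 and 1076. The deposited table gave 724, 259 and 766, and 2149, 1135 and 2492. The MEK inhibitor changed 28 genes 2-fold and 322 genes 1.5-fold with an offset of 16. Median centring moved the median of all genes with the MEK inhibitor to 0.10, and its share of higher among the genes past 1.5-fold from 55.4% to 90.4%. With the GSK inhibitor that share went from 46.2% to 60.1%. Members 1.5-fold higher with the GSK inhibitor numbered 2 with an offset of 16 and after median centring, against 1, while the share of all genes was 4.16% and 3.89%, against 3.02%. ADAMTS genes above 0 with the GSK inhibitor numbered 4 or 5 of 7 under other corrections and normalizations, against 2, but 1 of 6 with Cy5 also well above background and 4 of 13 with no filter, and 5 of 8 with the MEK inhibitor after median centring, against 3. Requiring Cy3 of at least 3 times its error gave 31 members on all 4 arrays, against 28. Of the cadherins 0 of 3, and of the ADAMTS genes 7 of 13, were above background on all 4 arrays, against 64.8% of all genes, which limits what can be said of them.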
